A study of Drosophila melanogaster with 41 samples.

Results

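The 5′-most exon bin was examined in each Drosophila melanogaster gene that the annotation divides into many exon bins, where a bin is a stretch of exon that every transcript either contains whole or lacks. Genes merged with a neighbour were left out, and 807 genes remained that had at least 15 bins and at least 100 counts over the 41 libraries. They were 807 of 16401 unmerged genes, and their first bins were 807 of 84619 bins in the tables. Of 810 unmerged genes with at least 15 bins, 3 had too few counts, with at most 48, whereas the lowest count kept was 107. There were 136 members with exactly 15 bins, and 145 genes with 14 bins and enough counts lay just outside. The share of a gene's counts that fell on its first bin was compared between stages and genotypes, as a readout of how often transcripts carried the most distal annotated first exon.

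The study followed males of Drosophila mutants in elav and fne, which encode neuronal RNA-binding proteins, by mRNA sequencing. All flies were untreated, were kept under standard husbandry, and came from stocks held over balancer chromosomes, and each library was made from a pool of whole embryos or of heads. Whole embryos at 14-16 h after egg laying (AEL) were wild type, delta-elav (Δelav, a deletion of elav), elavmin or delta-elav,fnenFNE, with 4 libraries each. Adult heads, from flies of 72 h (3 days old per the paper), were wild type, elavmin or delta-elav,fnenFNE, with 3 libraries each. Embryos at 7-8 h AEL had 4 libraries in each of 4 genotypes, namely fnenFNE, which served as the control group, elavmin,fnenFNE, delta-elav,fnenFNE and elavnFNE. The elavmin allele is a frame-shift that truncates ELAV in the third RNA recognition motif and leaves little protein, so it is a strong hypomorph and not a null. In fnenFNE the introns around a mini-exon of fne were removed, so that only the nuclear form of FNE (nFNE) is made, with a FLAG tag, and in elavnFNE the coding region of elav was replaced by tagged nFNE while the fne locus carries fnen, an allele without the mini-exon that makes no nuclear FNE. Every 7-8 h group, the control included, therefore carried an engineered allele that encodes nFNE, and there was no wild-type group at that age. Per the paper, fnenFNE has no expression yet at that age, whereas elavnFNE already makes abundant nFNE.

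Many genes have more than 1 promoter, and the transcript made from the most distal one carries its own first exon, which is usually noncoding or encodes only the start of the protein. Cells choose between such promoters by stage and tissue, and the choice sets which 5′ untranslated region, start codon and amino terminus the mRNA carries. In Drosophila, fru is a classical case, in which transcripts from the most distal promoter are spliced by sex and direct male courtship. A first bin also loses counts when transcripts are degraded from the 5′ end or when libraries cover 3′ ends more strongly.

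The first bins were 1 to 2408 nt long, with a median of 183 nt, and made up a median of 2.86% of the gene's exonic length. They stood at the head of genes of 15 to 119 bins (median 19) that spanned a median of 19931 nt. The first bin abutted the next one in 294 genes (36.4%), and the first unbroken exon block was followed by an intron of 1018 nt at the median and of 268107 nt at most. Of 797 genes found in the Ensembl annotation, 795 had an annotated transcript start exactly at the outer edge of the first bin. In 518 genes (64.2%) at least 1 further transcript started downstream of the first block, at a median distance of 2800 nt, whereas in 279 genes every annotated transcript started within the block. Coding sequence overlapped 166 of the 797 first bins. An annotated exon of another gene lay over 37 of the 807 first bins on the opposite strand and over 14 on the same strand. Among the named genes these were hth, fus and f-cup on the opposite strand and FBgn0259680 on the same. The strand setting of the counting is not given in the sources used here, so reads of such neighbours cannot be told apart from those of the first bin. Chromosome X held 151 of the members and chromosome 4 held 28.

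The sequence around the outer edge was read from the Drosophila genome of build dm6 (RefSeq), 20 bases before the edge and 10 bases from it onwards. The initiator motif tcagt, read on the sense strand from -6 to 6 around the edge, was found in 120 members (14.9%) against 6.5% of 16234 unmerged genes, and the TATA box tataaa, on the sense strand from -45 to -15, in 10 members (1.24%) against 7.71%. The DRE motif tatcgata, on either strand from -150 to 50, occurred in 78 members (9.67%) against 6.62%, and the GAGA motif gagagag, read the same way, in 68 (8.43%) against 4.18%. These motifs were scored independently, and none of their letter strings contains another. Windows were read for 47 of the 55 named members, and 20 are shown, chosen by the size of the log2 change and not by their letters. Among those 47, they include the 3 largest each way in wild-type heads against embryos. The same number was taken each way for the control at 7-8 h against wild type at 14-16 h. The others are the largest of the 47 each way in each genotype comparison and genotype by stage test. No window was read for mbl, CG9380 or Obsc, the 3 largest gains among named genes in wild-type heads. CG9380 was also among the 3 largest gains at 7-8 h. Capitals mark TCAGT where it lies in that interval. It did in 9 of these 20 windows and in 13 of the 47.
mub, chr3L:21844768-21844797, plus strand: gcggggggatatttcgatTCAGTtatttgt
pros, chr3R:11328460-11328489, plus strand: acaagttgcggcgcttttttctgctcctcg
f-cup, chr3R:13700829-13700858, minus strand: accttagattacgtttcgaacTCAGTcagc
Pdp1, chr3L:7867360-7867389, minus strand: ttaatcttttggaaaatagttTCAGTtacg
LpR1, chr3R:25763096-25763125, minus strand: aaaaccaacgacgaactttcagaaccgcgt
AP-1gamma, chrX:9108671-9108700, plus strand: ggtgagtggcactggaatcgTCAGTcttcc
PsGEF, chrX:2387655-2387684, minus strand: gtgcgcctgcgtcgaccttcatttccgttt
CG43078, chr3L:8576788-8576817, plus strand: aatagcaaataccacaacaagggcagtgca
Doa, chr3R:28888053-28888082, plus strand: gtcgcccaatcacatgcttctcacatcact
Rbfox1, chr3L:10481392-10481421, plus strand: gctcttttgcgcaaaattTCAGTctcccat
cher, chr3R:17125380-17125409, minus strand: tgctgtattgacttggacgtgtgcggtgcg
CaMKII, chr4:1053694-1053723, minus strand: cgcggccgcaaaatcttgttagtcagtatt
Ndae1, chr2L:7249334-7249363, minus strand: aaaaaaaaatagaaataaacagaagatagc
Tm1, chr3R:15281351-15281380, plus strand: agccaagtgcagttccaaagtaggcgcaga
tws, chr3R:10139763-10139792, minus strand: gcgcattcgcacggcgcgttTCAGTgctaa
nAChRalpha7, chrX:19348438-19348467, minus strand: ccacgtgtcgcggactccggcTCAGTtgca
norpA, chrX:4322606-4322635, plus strand: tttacatcactaacactcgtgcgaaacgga
OtopLa, chrX:5648478-5648507, minus strand: ggaagttggaaattTCAGTcagaagcgaac
Eph, chr4:610664-610693, plus strand: aaaatttgttttcatggattttaatgacgt
Mp, chr3L:6998823-6998852, plus strand: ctgccagcttttcaggccTCAGTctcagtc
Among the first bins tested between heads and 14-16 h embryos of wild type, the initiator lay at 13 of 62 that were higher in heads (21.0%), at 25 of 111 that were lower (22.5%) and at 72 of 450 that did not pass (16.0%).

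The libraries held 17668742 to 51377771 counts on bins. The mean position of counts along genes, scored from 0 at the 5′ end to 1 at the 3′ end over 2825 other genes, was 0.495 to 0.514 at 14-16 h, 0.512 to 0.552 in heads and 0.507 to 0.515 at 7-8 h. The median first-bin share of the members was 0.856% to 0.931% in wild-type embryos at 14-16 h, 0.742% to 0.816% in wild-type heads and 0.442% to 0.560% over all 7-8 h libraries, which were sequenced with shorter reads. Among heads, delta-elav,fnenFNE library 2 stood apart with the most 3′ position (0.552) and the lowest median share (0.641%). At 14-16 h, delta-elav,fnenFNE libraries 3 and 4 had positions of 0.514 and 0.512 and median shares of 0.770% and 0.748%, against 0.495 to 0.501 and 0.826% to 0.931% in the other 14 libraries. The elav gene, which was not a member, had 33.1% to 37.6% of its counts in coding bins in wild type but 10.1% to 21.3% in Δelav genotypes and 11.6% to 12.9% in elavnFNE. The 5 neuron markers summed to 5143 to 5870 CPM (counts scaled to the total on bins of each library) in wild-type heads and 1625 to 1810 CPM in wild-type embryos at 14-16 h, and the 3 muscle markers to 5078 to 6268 CPM and 20730 to 21426 CPM. At 7-8 h in the control elav itself stood at 595 to 752 CPM, against 168 to 185 CPM in wild type at 14-16 h. Each of the other 4 neuron markers stood at 0.333 to 3.95 CPM at 7-8 h and 273 to 578 CPM at 14-16 h. The control at 7-8 h had 485 to 527 CPM for the 4 neural progenitor markers, which stood at 30.5 to 32.5 CPM in wild type at 14-16 h. None of these cell types was therefore at a constant level between stages, and in bulk samples fewer cells of a type and less RNA per cell cannot be told apart.

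Which distal first exons are used differently in the adult head and in the late embryo was asked first in wild type. First-bin usage, given as the log2 change of the first bin against the gene's other bins, was higher in heads in 62 members and lower in 111 of 623 tested (27.8%), by edgeR at an adjusted p under 0.01, where 14.5% of all 61971 bins tested passed (7.42% higher and 7.07% lower). Among the named genes, mbl and mub, which encode RNA-binding proteins, and the transcription factor genes pros and fru gained first-bin usage, and Pdp1, LpR1, AP-1gamma and the muscle gene Zasp52 lost it. In comparisons of groups, genes were named only where the groups did not overlap, so the lack of overlap reported for named genes follows from that choice. The median log2 change of the members was -0.17, against -0.02 over all bins, and it was also -0.17 with the 7 members that had no count in 1 group set to their bounds. By mean level, 24 of the 62 higher first bins were above the embryo level while the rest of the gene was below it, in 36 both were above, and in the other 2 the first bin was below and the rest further below. Of the 111 lower ones, 46 were below the embryo level with the rest above, in 32 both were below, and in 33 both were above and the rest more so. Heads were compared with whole embryos, so tissue and stage cannot be told apart, and the mean position of counts was more 3′ in heads (0.515 to 0.522 against 0.496 to 0.498), whose part in the losses was not tested.

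**Figure D1:**
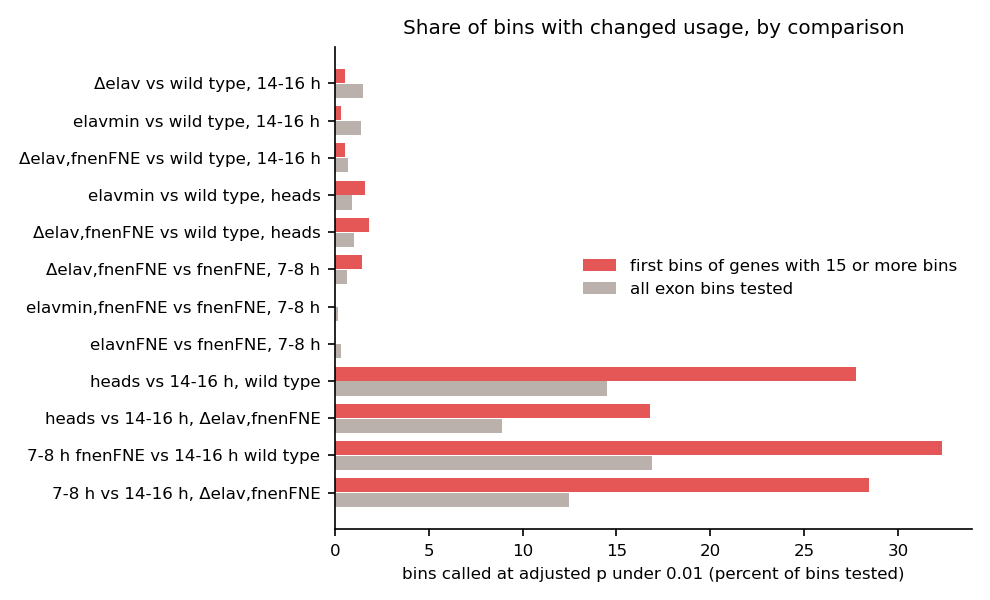
Share of bins whose usage passed an adjusted p of 0.01, in percent of bins tested (horizontal axis), for 12 comparisons (vertical axis), with the first bins of genes of 15 or more bins in red and all exon bins in grey. The 4 stage comparisons stand between 16.8% and 32.3% for first bins and between 8.88% and 16.9% for all bins, and every genotype comparison is at or under 1.81% for first bins.

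The calls differed in number by gene structure. Where the gene had a further start beyond the first block, 59 first bins were higher and 80 lower of 389 tested (35.7%), whereas where all annotated starts lay within the block 2 were higher and 28 lower of 228 (13.2%). First bins that overlapped coding sequence were called about as often as the others (27.5% and 27.9%). Genes listed with a neuronal 3′ untranslated region had 17 higher and 17 lower of 88 tested (38.6%), against 26.0% in the other members. Among other bins of the same genes, the last bin was called in 36.8% (249 higher and 24 lower of 741) and the bins between in 22.3%, and the first bins of genes with 2 to 14 bins in 9.13%. Calls on first bins were thus more often lower than higher, and those on last bins mostly higher.

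Regulators of RNA had 7 first bins higher and 5 lower of 21 tested, with a median log2 change of 0.21. All members together had 62 higher and 111 lower of 623 (27.8%), with a median of -0.17, against 7.42% higher and 7.07% lower of all bins. In mbl, the muscleblind splicing regulator, the first bin had no count in any of the 4 wild-type embryo libraries, which allows a share of up to 0.00608%, and took 1.72%, 1.42% and 1.19% of the gene's counts in the 3 heads. The share was at least 234-fold higher in heads, while the rest of the gene stood at 342 ± 18 CPM in embryos (SD, n = 4) and 347 ± 39 CPM in heads (SD, n = 3). In mub, which encodes a KH-domain RNA-binding protein, the share was 1.10%, 1.05% and 1.15% in heads against 0%, 0.0204%, 0.0444% and 0% in embryos. The ranges did not overlap, and with 3 counts in all embryo libraries the ratio was 74.1 (95% interval 25.2 to 360). This first exon lies 30061 nt upstream of the next bin, at chr3L:21844788-21845235, and 4 of 12 annotated transcripts start at its edge. Losses in the list included fus, which encodes a splicing regulator, with 0.149%, 0.327% and 0.295% in heads and 0.701%, 0.765%, 0.686% and 0.613% in embryos (log2 change -1.44 ± 0.33 (SE), adjusted p = 0.000248), and B52, an SR splicing factor, at 1.93%, 1.96% and 1.63% against 2.90%, 4.25%, 3.30% and 3.62% (-0.93 ± 0.10 (SE), adjusted p = 1.01e-12). Both pairs of ranges were apart, although the call for fus was lost without wild-type head library 1 (adjusted p = 0.0158). The other 3 that were lower were Rbp9, Srrm234 and sm. The naming rule did not pick these, and they are given after their values were seen.

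Transcription factors had 6 higher and 1 lower of 17 tested, with a median of 0.54, against 62 higher and 111 lower of 623 over all members (27.8%, median -0.17). The first bin of pros, which encodes the homeodomain protein Prospero of neural progenitors, glia and photoreceptor cells, held 0.724%, 1.07% and 1.15% of the gene's counts in heads, and 0.0264%, 0%, 0% and 0.0647% in embryos. That was a ratio of 43.1 (95% interval 14.7 to 210) on 3 embryo counts, and the rest of pros stood at 89.8 ± 7.2 CPM in embryos and 667 ± 69 CPM in heads. In fru the first bin, at chr3R:18545113-18545586 and 39024 nt from the next annotated start, held 4.36%, 3.87% and 4.15% in heads. A count was found in only 1 embryo library, which had 2 (1.27%, from a gene total that was low, at 5.25 ± 0.99 CPM outside the first bin), and the ratio was 15.7 (4.31 to 130). The factor with the opposite sign was E2f1, which the naming rule did not pick. Another transcription factor, the clock and muscle gene Pdp1, was in none of the lists and had the largest loss among the named genes. Its first bin, at chr3L:7867241-7867369, took 0.563%, 0.433%, 0.514% and 0.536% in embryos, and 1 count was found in heads 1 and 3 and none in head 2 (0.00443%, 0% and 0.00398%). The share was 183-fold lower in heads (50 to 1518), while the rest of Pdp1 stood at 288 ± 8 CPM in embryos and 1084 ± 45 CPM in heads.

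**Figure D2:**
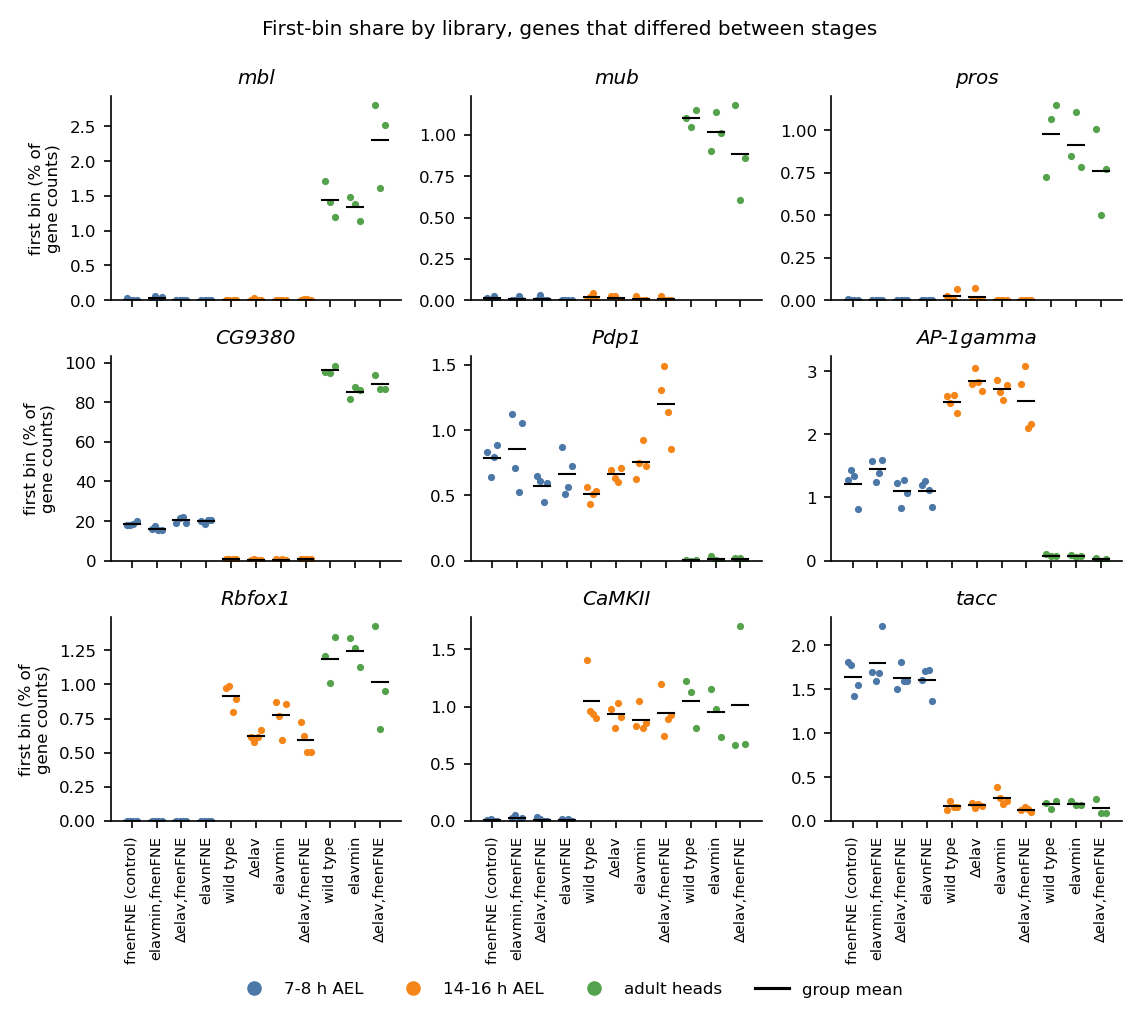
First-bin share of gene counts in percent (vertical axis) for mbl, mub, pros, CG9380, Pdp1, AP-1gamma, Rbfox1, CaMKII and tacc in each of the 41 libraries (points), ordered by the 11 groups (horizontal axis) and coloured by stage. For mbl, heads of all 3 genotypes are at 1.14% to 2.80% and no other library is above 0.0320%.

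In the list for cytoskeleton and trafficking none was higher and 10 were lower of 29 tested (34.5% lower, against 17.8% of all members; median -0.26). In the muscle list 1 member was higher and 2 were lower of 11 (18.2% lower; median -0.37). Most members of either list did not pass. The largest of these losses was in Zasp52, which encodes a Z-disc protein, with 0.195%, 0.141% and 0.132% in heads against 1.35%, 1.57%, 1.58% and 1.5% in embryos (log2 change -3.28 ± 0.18 (SE), adjusted p = 1.14e-37). The head and embryo values were far apart, and the rest of Zasp52 stood at 722 ± 63 and 636 ± 46 CPM. SERCA, the calcium pump of the endoplasmic reticulum, had 0.0770%, 0.0594% and 0.0443% in heads against 0.285%, 0.287%, 0.264% and 0.341% (-2.29 ± 0.16 (SE)). Fhos, a formin, fell by 1.53 and sls, the titin-like protein of the sarcomere, fell by 1.44 on the log2 scale, both without overlap, and the sls call was lost without head library 2 (adjusted p = 0.0145). Against this direction, Mhcl, a myosin heavy chain-like gene and the 1 member of the muscle list that was higher, rose by 1.32. Obsc and jp also rose, but neither is in these 2 lists. Obsc, which encodes the giant M-line protein obscurin, had 0.854%, 0.967% and 1.06% in heads and 0.00315%, 0.00377%, 0.0245% and 0.00715% in embryos (6.66 ± 0.32 (SE), adjusted p = 2.92e-51). In jp, which encodes junctophilin, usage rose by 2.82, and in Mhcl and jp heads were above every embryo library. The muscle markers were lower in heads, as given above, and their part in these changes was not tested.

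Ion channels had 1 higher and 6 lower of 34 tested (17.6% lower; median -0.16), axon guidance and cell adhesion none higher and 4 lower of 31 (12.9%; -0.25), and signalling enzymes and scaffolds 2 higher and 7 lower of 41 (17.1%; -0.26). The shares of lower calls in these 3 lists were under the 17.8% of all members, whose median was -0.17. norpA, the phospholipase C of phototransduction, had 0.822%, 0.754% and 0.760% of its counts on the first bin in heads and 3.32%, 4.74%, 3.55% and 3.25% in embryos (-2.26 ± 0.21 (SE), adjusted p = 2.17e-17). The heads were all lower in share, but the first bin itself stood at 17.6 ± 0.9 CPM in heads and 1.51 ± 0.29 CPM in embryos, and the rest of the gene at 2241 ± 179 and 39.0 ± 2.4 CPM, so both were higher in heads and the rest more so. The 6 photoreceptor markers summed to 67401 to 71375 CPM in wild-type heads and 17.9 to 20.1 CPM in the embryos, and their part was not tested. Itpr, the inositol trisphosphate receptor, fell by 1.01 (1.44%, 1.07% and 1.61% against 2.99%, 2.58%, 2.79% and 2.86%), and cno, the junction scaffold canoe, fell by 1.36. Losses were also found in nrm, neuromusculin (-1.31), and in tutl and Piezo, an immunoglobulin-family adhesion protein and a mechanosensitive channel, whose calls (-0.65 and -0.64) were lost without head library 2 (adjusted p = 0.0101) and head library 3 (adjusted p = 0.0171) respectively. The other 2 adhesion genes that were lower were axo and Tsp, the channel that was higher was Trpm, and the signalling genes that were higher were dlg1 and Pde8, a cyclic nucleotide phosphodiesterase (1.07 ± 0.17 (SE)). Of these, axo, Tsp, Trpm and dlg1 were not picked by the naming rule.

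Further members with large changes belonged to none of the lists. LpR1, a lipophorin receptor, had 2.40%, 2.25%, 2.69% and 2.49% in embryos and 0%, 0.0409% and 0.0407% in heads (-6.34 ± 0.41 (SE)), although the rest of the gene was higher in heads, at 217 ± 16 CPM against 81.2 ± 5.4 CPM. AP-1gamma, a subunit of the clathrin adaptor of the Golgi, had 2.60%, 2.5%, 2.62% and 2.34% in embryos and 0.0970%, 0.0709% and 0.0684% in heads (-4.96 ± 0.23 (SE), adjusted p = 7.19e-40), at nearly the same level of the rest, 166 ± 3 and 194 ± 7 CPM. In AP-1gamma the next start is 859 nt downstream and the first bin, at chrX:9108691-9108986, overlaps coding sequence, so the annotated proteins differ with the start. Mp, which encodes a collagen of the multiplexin type, had 0.979%, 1.08%, 1.18% and 1.11% in embryos and 0.107%, 0.0421% and 0.0982% in heads (-3.68 ± 0.28 (SE)). Sarm, the axon degeneration factor, fell by 3.46, CG43897 by 4.29, FBgn0259680 by 3.22 and CG42268 by 2.60, all without overlap between heads and embryos.

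The gains outside the lists included a gene in which little else was left. In CG9380, 95.2%, 95% and 98.5% of the counts in heads fell on the first bin, against 0.532%, 0.545%, 0.531% and 0.538% in embryos (7.49 ± 0.12 (SE), adjusted p = 3.48e-56). The first bin stood at 8.40 ± 0.98 CPM in heads and 3.75 ± 0.07 CPM in embryos, whereas the other 14 bins together stood at 0.324 ± 0.184 and 695 ± 9 CPM. Most of the difference in share thus lay in the rest of the gene. The Ensembl annotation has no exon of another gene over this first bin, and the next annotated start lies 65194 nt from the first. In f-cup the first bin, at chr3R:13700683-13700838 and overlapped by an exon of another gene on the opposite strand, held 16.8%, 16.0% and 18.6% in heads and 0.654%, 0.459%, 0.199% and 0.865% in embryos (4.94 ± 0.20 (SE)), and the rest stood at 92.5 ± 1.3 and 29.0 ± 1.5 CPM. CG31522 and CG4238 rose by 3.74 and 2.46 on the log2 scale, again with every head above every embryo library.

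**Figure D3:**
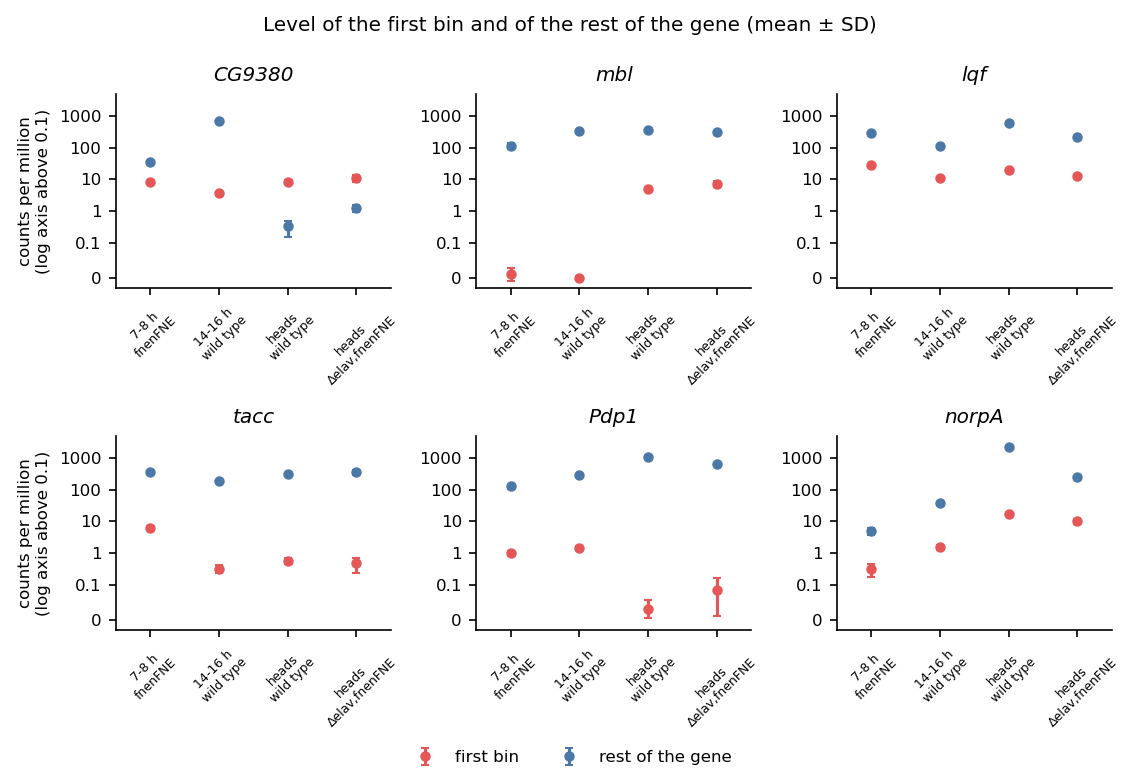
Level of the first bin and of the rest of the gene in CPM (vertical axis, logarithmic above 0.1) for CG9380, mbl, lqf, tacc, Pdp1 and norpA in fnenFNE embryos at 7-8 h, wild-type embryos at 14-16 h, wild-type heads and delta-elav,fnenFNE heads (horizontal axis), as mean ± SD over 3 or 4 libraries. In CG9380 the rest of the gene is at 695 CPM in wild-type embryos and 0.324 CPM in wild-type heads, whereas in Pdp1 the rest is at 288 and 1084 CPM and the first bin is lower in heads.

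The same stage comparison in delta-elav,fnenFNE used none of the wild-type libraries. There 45 first bins were higher in heads and 58 lower of 613 tested (16.8%, against 8.88% of all bins, with 4.71% higher and 4.18% lower), with a median log2 change of -0.22 (-0.06 over all bins, and -0.22 with 4 members at their bounds). Of the 62 higher in wild type, 37 were also called higher (59.7% of that list and 82.2% of the 45), and of the 111 lower in wild type 49 were called lower (44.1%, and 84.5% of the 58). None was called in opposite directions, and 465 of 601 members tested in both had the same sign (77.4%). The largest changes were again in mbl (2.80%, 1.61% and 2.52% in heads, against 2 counts in all 4 embryo libraries, a ratio of 538 with an interval of 148 to 4451), in pros (1.01%, 0.501% and 0.772%, against none, at least 29.6-fold) and in CG9380 (94.0%, 86.6% and 86.6%, against 0.538%, 0.525%, 0.616% and 0.562%). On the other side stood LpR1, 288-fold lower in heads (79.1 to 2391), AP-1gamma (0.0433%, 0% and 0.0248% against 2.79%, 3.08%, 2.10% and 2.15%, -6.47 ± 0.39 (SE)) and Pdp1 (0.0190%, 0.0205% and 0% against 1.31%, 1.49%, 1.14% and 0.853%). In each of these 6 genes heads and embryos did not overlap, as the naming rule required. By structure, 43 were higher and 46 lower of 385 with a start beyond the first block (23.1%), against 1 and 11 of 223 without (5.38%). Transcription factors had 4 higher and 1 lower of 17, RNA regulators 5 and 2 of 20, and cytoskeleton and trafficking 1 and 6 of 29. Over all members these counts were 45 and 58 of 613 (16.8%).

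**Figure D4:**
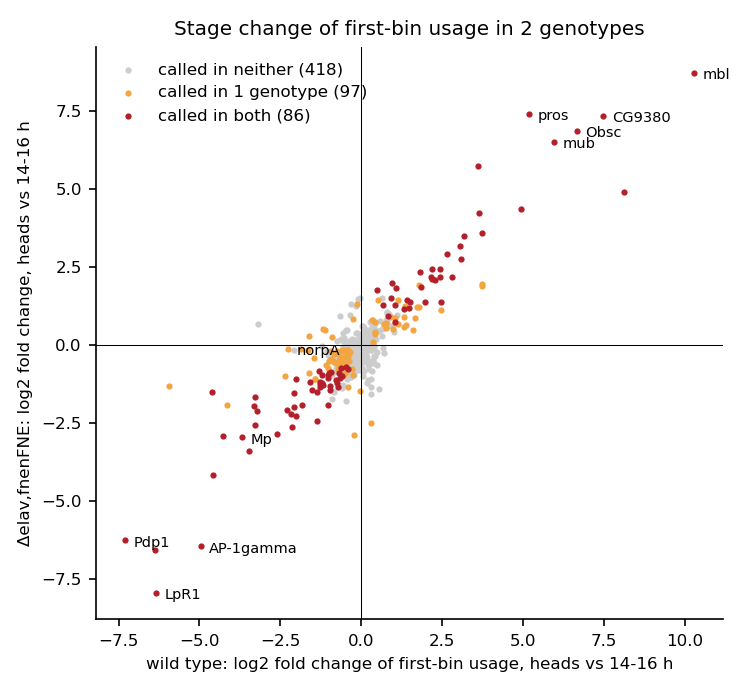
Log2 change of first-bin usage between heads and 14-16 h embryos in wild type (horizontal axis) and in delta-elav,fnenFNE (vertical axis) for the 601 members tested in both (points). The 86 members called in both genotypes lie in the upper right and lower left quadrants, with 97 called in 1 genotype and 418 in neither.

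Which first exons are in use around the onset of neuronal differentiation and which later in embryogenesis was asked between 7-8 h and 14-16 h AEL. Between the fnenFNE control at 7-8 h and wild type at 14-16 h, 74 first bins were higher at 7-8 h and 110 lower of 569 tested (32.3%), and 16.9% of all bins passed (6.32% higher and 10.6% lower). Among the named genes, the splicing regulator Rbfox1, the kinases CaMKII and PKD and the filamins cher and jbug had 0 to 3 first-bin counts in all control libraries at 7-8 h, whereas the centrosome gene tacc, the laminin gene wb and the exchange factor gene PsGEF had larger first-bin shares then. The median was -0.13 (-0.02 over all bins), and -0.07 with 41 members without a count in 1 group at their bounds. Of the 74 higher ones, 22 had a higher first bin and a lower rest, in 26 both were higher at 7-8 h, and in 26 both were lower and the rest more so. Of the 110 lower ones, 35 had a lower first bin and a higher rest, in 52 both were lower, and in 23 both were higher and the rest more so. With a mean of at least 10 counts required in each group, a setting chosen after the data were seen, 64 were higher and 68 lower. Here genotype, age and read length changed together and cannot be told apart, and age and read length cannot be told apart in any comparison of the 2 embryonic stages.

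Among first bins lower at 7-8 h, Rbfox1, a splicing regulator of neurons and muscle, had no first-bin count in the 4 control libraries, which allows up to 0.00645%, and 0.975%, 0.989%, 0.801% and 0.890% in wild type at 14-16 h, at least 142-fold more. The rest of the gene was at like levels, 375 ± 29 and 322 ± 18 CPM, so the gene was measured at both ages while the exon at chr3L:10481412-10481945 was found at 14-16 h only. CaMKII, the calcium/calmodulin-dependent kinase of synapses, had 2 counts at 7-8 h (0.00757%, 0.0161%, 0% and 0%) and 1.40%, 0.960%, 0.931% and 0.899% at 14-16 h, a ratio of 173 (47.8 to 1431). In CaMKII the rest stood at 261 ± 20 and 690 ± 24 CPM. The filamin cher had no count at 7-8 h (up to 0.0102%) and 0.356%, 0.290%, 0.350% and 0.336% at 14-16 h, at least 32.5-fold, and the filamin-related jbug had 3 counts and 0.572%, 0.483%, 0.561% and 0.562% (91.0, 31.0 to 442). In both genes the age groups were apart, at 234 ± 38 and 396 ± 22 CPM for the rest at 7-8 h. PKD, protein kinase D, was 178-fold lower (31.6 to 7058) on 1 count at 7-8 h, and CG42268 at least 20.5-fold lower on none.

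Among first bins higher at 7-8 h, PsGEF, a guanine nucleotide exchange factor gene, held 5.0%, 5.78%, 4.53% and 4.48% in the control and 0.127%, 0%, 0.152% and 0.0819% at 14-16 h (5.72 ± 0.32 (SE), adjusted p = 1.24e-36). The exon was not found in any wild-type head, which allows up to 0.00747%, although the rest of PsGEF stood at 612 ± 16 CPM there, and all 8 transcripts that Ensembl annotates start at its edge, at chrX:2387413-2387664. The annotation thus lists no transcript start beyond the exon block of this bin. The laminin alpha chain gene wb had 4.75%, 5.12%, 5.24% and 4.23% at 7-8 h and 0.680%, 0.525%, 0.479% and 0.492% at 14-16 h (3.16 ± 0.16 (SE)). Doa, a LAMMER kinase, had 1.14%, 0.794%, 1.06% and 1.32% against 0.0900%, 0.0995%, 0.0732% and 0.0826% (3.64 ± 0.20 (SE)), with the rest at 399 ± 5 and 488 ± 3 CPM. Neither gene overlapped between the ages, and the first exon of wb lies 37972 nt from the next annotated start. In tacc, which acts on centrosomal microtubules, the shares were 1.81%, 1.78%, 1.42% and 1.55% against 0.123%, 0.227%, 0.156% and 0.157% (3.30 ± 0.18 (SE), adjusted p = 9.25e-35). CG9380 was higher at 7-8 h too, at 17.9%, 17.8%, 18.3% and 20.2% (5.11 ± 0.12 (SE)), and CG43078, whose gene was scarce then (1.67 ± 0.78 CPM outside the first bin), by 4.65.

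Over all members 74 first bins were higher at 7-8 h and 110 lower of 569 (32.3%, median -0.13), against 6.32% higher and 10.6% lower of all bins. By list, axon guidance and cell adhesion had 3 higher and 12 lower at 7-8 h of 28 tested (median -0.29). The 3 higher ones were Nlg2, Pvr and Sema2b, which the naming rule did not pick. Cytoskeleton and trafficking had 6 higher and 5 lower of 28, RNA regulators 3 and 6 of 17, transcription factors 3 and 5 of 14, signalling 5 and 5 of 38, ion channels 2 and 3 of 24 (median 0.28) and muscle none and 2 of 9 (median 0.48). The median and the calls differ in sign for ion channels and for muscle. By structure, 66 were higher and 76 lower of 351 with a start beyond the first block (40.5%), and 8 and 34 of 213 without (19.7%).

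Within delta-elav,fnenFNE, which was sampled at both embryonic ages, 70 first bins were higher at 7-8 h and 78 lower of 520 tested (28.5%, against 12.5% of all bins, with 4.79% higher and 7.67% lower; median 0.01, or 0.07 with 44 members at their bounds, and -0.02 over all bins). This comparison shares no library with the one above and has the same genotype on both sides. Of the 74 higher in the first comparison 57 were called here (77.0%, and 81.4% of the 70), and of the 110 lower 70 were (63.6%, and 89.7% of the 78). None had opposite calls, and 422 of 518 tested in both had the same sign (81.5%). Rbfox1 and cher again had no count at 7-8 h, at least 71.8-fold and at least 23.5-fold less than at 14-16 h, and jbug was 84.9-fold lower (23.4 to 702). CG9380 (18.9%, 21.3%, 22.2% and 18.9% against 0.538%, 0.525%, 0.616% and 0.562%), tacc (1.5%, 1.82%, 1.60% and 1.59% against 0.124%, 0.160%, 0.132% and 0.0997%) and CG43078 (4.89 ± 0.37 (SE)) were higher. With a mean of at least 10 counts required in each age, 56 were higher and 33 lower, 89 in place of 148, so the excess of lower calls turned into an excess of higher ones. First bins with a start beyond the block were called in 39.0% of 313 and the others in 12.8% of 203.

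Whether ELAV and FNE affect distal first exons was asked by comparing genotypes within each stage, and few members passed. At 14-16 h, Δelav had 3 lower first bins and none higher of 583 tested (0.515%, against 1.51% of all bins, with 0.498% higher and 1.01% lower), elavmin had 1 higher and 1 lower of 580 (0.345%, against 1.39%, with 0.544% higher and 0.848% lower), and delta-elav,fnenFNE had 1 higher and 2 lower of 579 (0.518%, against 0.705%, with 0.363% higher and 0.342% lower). The member medians were -0.02, -0.05 and -0.11, with 0.00, 0.00 and -0.01 over all bins, and the last of these moved together with the more 3′ position of delta-elav,fnenFNE libraries 3 and 4, whose part was not tested. The last bins of the same genes were called in 12.6% in Δelav, 10.6% in elavmin and 2.92% in delta-elav,fnenFNE, and the bins between in 2.45%, 1.83% and 0.921%. Shares of first bins called were below those of all bins in each of these 3 comparisons, on only 3, 2 and 3 calls. First bins of genes with 2 to 14 bins were called in 0.455%, 0.702% and 0.446%. Without Δelav library 1 the Δelav count was 1, and without wild-type library 3 the delta-elav,fnenFNE count was 1. For elavmin the count was 0 without wild-type library 3, elavmin library 1 or elavmin library 4, and 5 without elavmin library 2.

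Ndae1, which encodes a sodium-driven anion exchanger, had the smallest adjusted p among genotype differences in embryos. Its first bin, at chr2L:7248829-7249343, held 2.59%, 2.35%, 2.33% and 2.36% in wild type and 1.03%, 1.10%, 1.15% and 1.32% in Δelav (-1.07 ± 0.14 (SE), adjusted p = 3.01e-09), while the rest of the gene stood at 216 ± 13 and 253 ± 30 CPM. The share was 1.55%, 1.60%, 1.70% and 1.66% in elavmin (-0.57 ± 0.14 (SE), adjusted p = 0.00501) and 1.66%, 1.96%, 2.38% and 1.98% in delta-elav,fnenFNE, which did not pass. Wild type lay above both Δelav and elavmin without overlap. The Δelav call held in every alternative, whereas the elavmin call was lost without 6 of the 8 libraries, namely any wild-type library or elavmin library 1 or 4 (adjusted p up to 0.0420). The other members lower in Δelav were hth, the homeodomain cofactor homothorax (0.528%, 0.623%, 0.602% and 0.639% against 0.956%, 0.917%, 1.01% and 0.885%, -0.65 ± 0.12 (SE), adjusted p = 0.00265), and CG9674, a glutamate synthase (0.612%, 0.484%, 0.650% and 0.709% against 1.11%, 1.17%, 0.933% and 0.790%, -0.72 ± 0.17 (SE), adjusted p = 0.00302). Neither overlapped wild type, as the naming rule required. The hth call was lost without wild-type library 3 or Δelav library 1 (adjusted p up to 0.0321), and that of CG9674 without wild-type libraries 1 or 2 or Δelav libraries 1 or 2 (up to 0.0550). In elavmin spg, an exchange factor of the DOCK family named here after its values were seen, was higher at 0.494%, 0.541%, 0.634% and 0.471% against 0.194%, 0.154%, 0.248% and 0.222%, on 6 to 17 counts a library (1.37 ± 0.28 (SE), adjusted p = 0.00619).

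In delta-elav,fnenFNE embryos at 14-16 h the first bin of fne itself, the targeted gene, was lower, at 1.06%, 0.659%, 0.742% and 0.781% against 1.90%, 1.66%, 1.46% and 1.24% in wild type (-0.96 ± 0.17 (SE), adjusted p = 5.77e-05). The first bin stood at 3.32 ± 0.69 and 4.05 ± 0.86 CPM and the rest at 408 ± 57 and 254 ± 8 CPM, so the rest was higher at the edited locus. Tm1, tropomyosin, was lower, at 0.0223%, 0.0264%, 0.0319% and 0.0258% against 0.0459%, 0.0520%, 0.0650% and 0.0490% (-1.0 ± 0.20 (SE), adjusted p = 0.000885), but not without wild-type library 3 (adjusted p = 0.0334), nor when the whole first exon block was taken (log2 change 0.049). Pdp1 was higher, at 1.31%, 1.49%, 1.14% and 0.853% against 0.563%, 0.433%, 0.514% and 0.536% (1.19 ± 0.28 (SE), adjusted p = 0.00741), a call lost without any wild-type library and without delta-elav,fnenFNE library 1 or 3 (up to 0.0862). In all 3 genes the mutant and wild-type libraries did not overlap, as the naming rule required.

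In heads, 8 first bins were higher and 1 lower of 561 tested in elavmin (1.60%, against 0.919% of all bins, with 0.497% higher and 0.423% lower), and 7 higher and 3 lower of 553 in delta-elav,fnenFNE (1.81%, against 0.995%, with 0.443% higher and 0.552% lower). Photoreceptor markers were lower in the same mutant heads, and the paper reports much smaller eyes in adult delta-elav,fnenFNE flies. The 6 photoreceptor markers (ninaE, ninaC, Arr1, Arr2, trp and inaD) summed to 67401 to 71375 CPM in wild-type heads, 37656 to 38022 CPM in elavmin and 283.9 to 332.9 CPM in delta-elav,fnenFNE; all 6 were lower in both mutants and none was at 0. Among other bins of the member genes, the bins between were called in 1.69% in elavmin and 1.89% in delta-elav,fnenFNE. The last bins were called in 3.22% and 2.79%, and the first bins of genes with 2 to 14 bins in 0.323% and 0.448%. First bins of members were thus called about as often as the bins between. The member medians were 0.00 and -0.13, with 0.00 and -0.03 over all bins. The elavmin count was 4, 3 and 4 without wild-type libraries 1, 2 and 3 and 5 without elavmin library 2 or 3, and it was 4 when all head groups entered 1 fit. For delta-elav,fnenFNE the count was 4, 5 and 4 without wild-type libraries 1, 2 and 3, 4 without mutant library 1 and 16 without mutant library 2, the library with the most 3′ coverage. The 10 calls in delta-elav,fnenFNE lay on X (7 of 86 tested) and 3L (3 of 101), and those in elavmin on X, 2L, 3L and 3R (3, 1, 3 and 2). The share of all bins called was not counted by chromosome, so whether X stands out for first bins cannot be told. The paper reports variable genetic background between fly strains, and its part here was not tested.

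Among the called genes, norpA, rdgA and rdgC are known from phototransduction, for which no gene list was set up. The members trp and ninaC, which are among the photoreceptor markers, and trpl, rdgB and inaE were not called in either mutant. Phototransduction genes were not counted as a set, so these calls do not describe the class. Both rdgA and rdgC were not picked by the naming rule and are given after their values were seen. The norpA first bin, at chrX:4322626-4323155, held 0.822%, 0.754% and 0.760% in wild-type heads and 1.01%, 1.13% and 0.996% in elavmin, which did not pass (0.43 ± 0.14 (SE), adjusted p = 0.193). It held 4.17%, 3.16% and 4.26% in delta-elav,fnenFNE (2.32 ± 0.22 (SE), adjusted p = 1.0e-13, held in every alternative). The first bin stood at 17.6 ± 0.9, 13.2 ± 1.8 and 9.90 ± 1.83 CPM and the rest at 2241 ± 179, 1244 ± 82 and 245.5 ± 5.5 CPM, so the share was higher where the rest was lower. In rdgA, the diacylglycerol kinase of photoreceptor cells, the shares were 0.0263%, 0.0609% and 0.0647% in wild type, 0.345%, 0.319% and 0.379% in elavmin (2.73 ± 0.35 (SE), adjusted p = 1.43e-09) and 0.514%, 0.344% and 0.520% in delta-elav,fnenFNE (3.16 ± 0.45 (SE), adjusted p = 4.92e-08). The rest of rdgA stood at 1349 ± 119, 662 ± 100 and 205 ± 2 CPM, but its first bin was higher in elavmin, at 2.30 ± 0.23 CPM against 0.700 ± 0.329 CPM. In rdgC, a rhodopsin phosphatase, wild type had 0.25%, 0.379% and 0.366%, elavmin 0.602%, 0.670% and 0.987% (1.19 ± 0.22 (SE)) and delta-elav,fnenFNE 1.36%, 1.06% and 1.29% (1.89 ± 0.27 (SE)). In all 3 genes the shares of both mutants lay above wild type without overlap, although norpA was not called in elavmin. The part of the photoreceptor markers and of the smaller eyes of delta-elav,fnenFNE in this was not tested.

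Other head calls were shared or close in both mutants. The first bin of nAChRalpha7, a nicotinic acetylcholine receptor subunit, held 4.75%, 5.05% and 5.55% in wild type, 2.75%, 2.67% and 2.5% in elavmin (-0.96 ± 0.16 (SE), adjusted p = 8.17e-06) and 2.37%, 0.808% and 2.12% in delta-elav,fnenFNE (-1.68 ± 0.25 (SE), adjusted p = 1.19e-06, and 0.0553 with DESeq2). Every annotated transcript of the gene starts at this bin, chrX:19347836-19348447, and the rest stood at 332 ± 35, 412 ± 41 and 498 ± 147 CPM. lqf, the endocytic adaptor epsin, had 2.94%, 3.04% and 3.27% in wild type, 4.17%, 4.80% and 4.54% in elavmin (0.55 ± 0.11 (SE), adjusted p = 0.00318) and 6.27%, 5.08% and 5.78% in delta-elav,fnenFNE (0.89 ± 0.16 (SE), adjusted p = 0.000505). The rest of lqf stood at 614 ± 34, 487 ± 38 and 212 ± 9 CPM, and the embryos at 14-16 h had 6.97% to 9.10% in all 4 genotypes. The lqf calls were lost without 5 of 6 libraries in elavmin (all but elavmin library 1, adjusted p up to 0.0647) and 4 of 6 in delta-elav,fnenFNE (any wild-type library or mutant library 1, up to 0.0322). zyd, a potassium-dependent sodium/calcium exchanger not picked by the naming rule, was higher in both (2.27 and 2.52) on 2 to 7 counts in wild-type heads.

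Calls in 1 of the mutants only were Moe, OtopLa, Exn and RhoGAP18B in delta-elav,fnenFNE and tws, Cdep, Mp and Rtnl1 in elavmin; whether the 2 mutants differ was not tested. Moe, the membrane-cytoskeleton linker moesin, had 0.527%, 0.503% and 0.647% in delta-elav,fnenFNE, 0.392%, 0.293% and 0.388% in elavmin and 0.267%, 0.235% and 0.232% in wild type (1.18 ± 0.21 (SE), adjusted p = 0.00696), a call lost without any wild-type library and without mutant library 1 or 3 (up to 0.123). OtopLa, a proton channel of the otopetrin family, had 0.103%, 0.0736% and 0.0922% in delta-elav,fnenFNE and 0.404%, 0.248% and 0.312% in wild type (-1.80 ± 0.38 (SE), adjusted p = 0.000874), a call lost without wild-type library 1 or 3 or mutant library 1 (up to 0.0411). In elavmin, tws, a regulatory subunit of protein phosphatase 2A, had 4.24%, 4.47% and 3.52% against 2.46%, 2.52% and 1.97% (0.81 ± 0.17 (SE), adjusted p = 0.00294), and delta-elav,fnenFNE lay on the other side of wild type, at 1.24%, 1.03% and 1.11%. Cdep, a FERM-domain exchange factor, had 4.70%, 5.17% and 4.84% against 2.93%, 2.82% and 3.34% (0.69 ± 0.14 (SE), adjusted p = 0.00113), with 2.79%, 2.13% and 2.23% in delta-elav,fnenFNE. The tws call was lost without any library but elavmin library 3 (up to 0.0830) and that of Cdep without wild-type library 1 or 2 or elavmin library 2 or 3 (up to 0.0381). Of those that the naming rule did not pick, Exn, Mp and Rtnl1 were higher (1.78, 2.10 and 0.51) and RhoGAP18B was lower (-2.39, on 2 or 3 counts a mutant library).

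**Figure D5:**
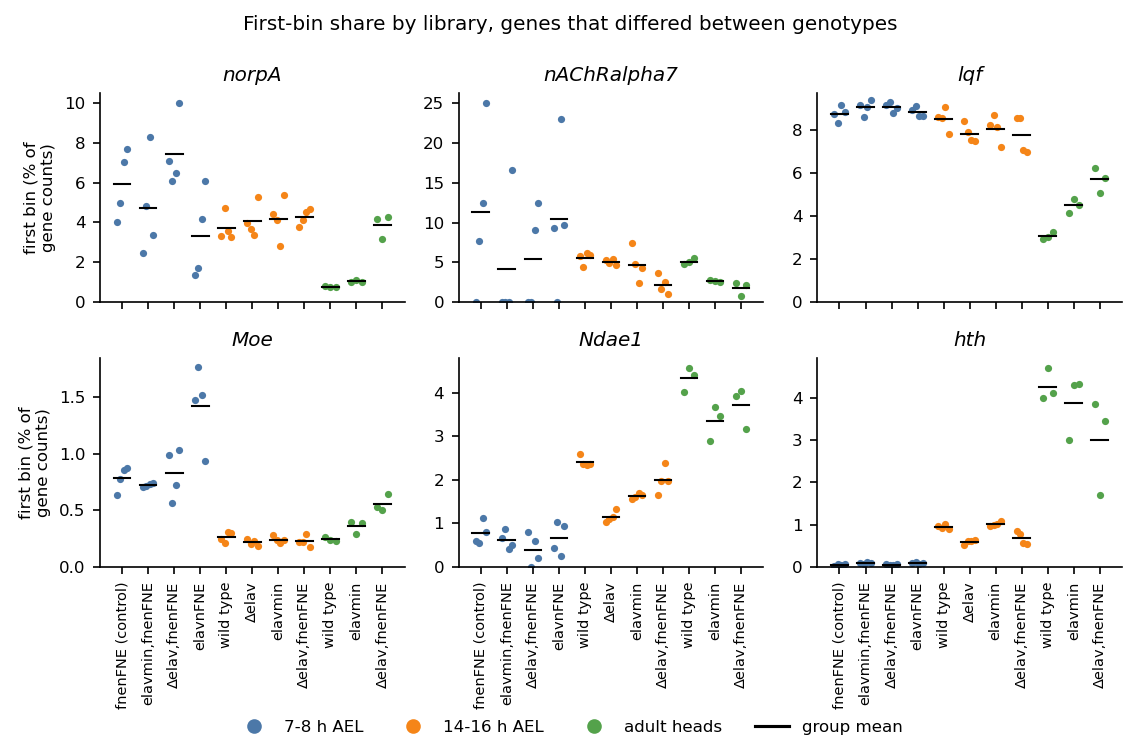
First-bin share of gene counts in percent (vertical axis) for norpA, nAChRalpha7, lqf, Moe, Ndae1 and hth in each of the 41 libraries (points), ordered by the 11 groups (horizontal axis) and coloured by stage. Heads of delta-elav,fnenFNE stand at 3.16% to 4.26% for norpA where wild-type heads stand at 0.754% to 0.822%, and Δelav embryos lie below wild type for Ndae1 and hth.

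At 7-8 h, where the control was fnenFNE, 5 first bins were higher and none lower in delta-elav,fnenFNE of 352 tested (1.42%, against 0.634% of all bins, with 0.413% higher and 0.222% lower). None passed in elavmin,fnenFNE of 358 tested (0.153% of all bins did, 0.051% higher and 0.102% lower) or in elavnFNE of 356 (0.313%, with 0.12% higher and 0.193% lower), where 20 and 17 members had an unadjusted p under 0.05 in edgeR. With limma and with DESeq2, elavnFNE had 1 call by each, and elavmin,fnenFNE had none. Eph, the receptor tyrosine kinase of axon guidance, had 1.56%, 1.03%, 1.75% and 1.22% in delta-elav,fnenFNE and 0.546%, 0.864%, 0.878% and 0.885% in the control (0.85 ± 0.18 (SE), adjusted p = 0.00168). kra, a regulator of translation, had 2.29%, 1.84%, 2.21% and 2.09% against 1.29%, 1.73%, 1.74% and 1.51% (0.43 ± 0.09 (SE), adjusted p = 0.00270). Mutant and control did not overlap in either gene, as the naming rule required, but DESeq2 called neither (0.542 and 0.555). Both calls were lost without control library 1 or mutant library 1 or 3, and that of kra also without mutant library 4 (up to 0.130 and 0.205). The other 3, Cnot4, HUWE1 and Sema2a, were not picked by the naming rule and overlapped the control (2.06, 1.26 and 0.63). The count of 5 became 0 without control library 1 or mutant library 3, 1 without mutant library 1, 2 without mutant library 4, and 8 without mutant library 2.

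Whether the genotype difference itself differed between heads and 14-16 h embryos was tested with a genotype by stage term. It passed in 2 members for elavmin of 642 tested (0.312%, against 0.378% of all bins, with 0.266% higher and 0.112% lower) and in 7 for delta-elav,fnenFNE of 646 (1.08%, against 0.552%, with 0.278% higher and 0.275% lower). All had a positive term, which is the signed mutant-over-wild-type log2 change in heads minus that in embryos. A positive term can come from a gain in heads or from a loss in embryos, and fne changed by -0.96 in embryos. For delta-elav,fnenFNE the members that passed were norpA (2.13 ± 0.32 (SE), adjusted p = 1.86e-07), Moe (1.44 ± 0.30 (SE), adjusted p = 0.00513) and fne (1.26 ± 0.29 (SE), adjusted p = 0.00545) by the naming rule, and rdgA, lqf, pyd and M7BP outside it. For elavmin they were Mp (1.97 ± 0.39 (SE), adjusted p = 0.00533), and rdgA (2.89 ± 0.43 (SE), adjusted p = 1.02e-07), which the naming rule did not pick. At 14-16 h the norpA shares of the 4 genotypes overlapped, within 2.82% to 5.38%, and fne was lower in mutant embryos and not in mutant heads (2.92%, 2.53% and 2.84% against 2.21%, 2.35% and 2.05%). The norpA term held in every alternative, whereas the terms for Mp, Moe and fne were lost without 7, 8 and 10 of the 14 libraries (adjusted p up to 0.132, 0.0309 and 0.0552). For elavmin the count was 1 without wild-type head library 1 or 3 or elavmin head library 2 and 4 without elavmin embryo library 3, and for delta-elav,fnenFNE it was 4 without wild-type head library 1 or 3 or delta-elav,fnenFNE embryo library 4.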

How the data were processed

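mRNA sequencing of 41 Drosophila libraries was analysed from tables of read counts per exon bin. Per the labels and the study's methods, the authors aligned reads with STAR to dm6 within snakePipes and deposited raw counts of reads on flattened exon bins, and the strand setting of that counting is not given in the sources used here, so counts on a bin can include reads of a gene on the opposite strand. Fold changes and p-values in the deposited tables are the authors' own comparisons and were not used. The tables repeat 19 library columns, which held identical counts, and 78 continuation lines that name no bin were left out.

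The first bin was the 5′-most bin by strand. Usage was tested with edgeR 4.0.16 (robust quasi-likelihood fit, TMM, filterByExpr, diffSpliceDGE at bins) in R 4.3.3 on the groups of each comparison. The p-values were adjusted by Benjamini-Hochberg across every tested bin, and the threshold was 0.01. A log2 change compares the first bin with the gene's other bins. SE is the log2 change over the square root of F. The genotype by stage term was fitted to both stages together. Shares are first-bin counts in percent of the gene's counts, and CPM is the count scaled to the library total on bins. Where a group had no count, a floor of 3 counts over the group was used, and with 1 to 3 counts an exact 95% interval of the ratio, both of which cover counting error only. Replicate numbers are separate pools of animals, and none of the 57 pairs within a group differed by less than sampling noise (lowest chi-square per degree of freedom 4.69). Alternatives used limma 3.58.1 voom, DESeq2 1.42.0, other filters, thresholds and exon blocks, and each library left out. Scripts were tested on simulated counts.

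Named genes were those called, without overlap between groups, with a mean first-bin count of at least 50 in 1 group, and with the largest log2 changes: up to 10 each way for wild-type heads against embryos, 6 each for the fnenFNE to wild-type embryo comparison, Δelav and delta-elav,fnenFNE at 7-8 h, 3 each for the others, and 2 each way per gene list in heads against embryos and in Δelav. The members, the gene lists (7 lists holding 230 members) and the tests were chosen with earlier results of these data known. Symbols were found for 797 of 807 genes. Sequences and annotated starts came from the RefSeq genome and the Ensembl annotation.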

Additional observations from a re-analysis of the deposited data

Results flagged for a closer look

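In 98 groups of 4 libraries tested for a value far from the other 3, 12 were found, and chance gives about 5% of groups. The count total on bins was 51377771 in the control library 1 at 7-8 h, above 23928300 to 25810527 in the others. In wild type at 14-16 h the distant shares were 2.59% for Ndae1 (library 1), 1.27% for fru (2 counts, library 4), 0.722% for CG43078 (library 3), 1.40% for CaMKII (library 1) and 0.483% for jbug (library 2). In the 7-8 h control they were 0.546% for Eph (library 1) and 0.0649% for PKD (1 count, library 2). In delta-elav,fnenFNE they were 4.14% for LpR1 (library 3) and 0.371% for cher (library 1) at 14-16 h, and 31.4% for CG43078 (library 2) and 0.0208% for jbug (2 counts, library 1) at 7-8 h. None of these libraries was left out.

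Genotype effects that differed between heads and 14-16 h embryos by a test of the difference (edgeR) were those of Mp in elavmin (1.97) and of norpA (2.13), Moe (1.44) and fne (1.26) in delta-elav,fnenFNE.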

How the results depend on the processing

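The 12 comparisons and 2 genotype by stage tests were recomputed under each alternative. For the 78 named results, 970 alternatives kept direction and side of the threshold, 99 lost the call and 1 reversed, the last being Tm1 in delta-elav,fnenFNE embryos (log2 change 0.049 with the first contiguous exon block). Among stage comparisons the only losses were for tutl (2), Piezo (2), fus (1) and sls (1) in wild-type heads against embryos. All other losses were in genotype comparisons and genotype by stage tests, whose named calls were thus much less stable. Counts of calls beyond 1.5 times the values given above were, for Δelav at 14-16 h, 5 with the exon block and 1 with the DESeq2 likelihood ratio test; for elavmin at 14-16 h, 11 at an adjusted p of 0.05, 8 with the block of exons, 1 with a mean of at least 10 counts in each group (chosen after seeing the data) and 1 in a fit of all groups of the stage. For heads of elavmin they were 4 in a fit of all groups and 5 with DESeq2, and for delta-elav,fnenFNE at 7-8 h 9 at 0.05, 9 with the exon block and 0 with DESeq2. The exon block gave 2 for elavmin,fnenFNE and limma and DESeq2 gave 1 each for elavnFNE. A minimum mean of 10 counts gave 89 between the ages of delta-elav,fnenFNE embryos. The genotype by stage tests gave 7 at 0.05 and 5 with the exon block for elavmin, and 14 at 0.05 for delta-elav,fnenFNE. In each case the cause was not tested.

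With each library left out in turn, counts were 1 to 3 for Δelav, 0 to 5 for elavmin and 1 to 4 for delta-elav,fnenFNE at 14-16 h, 3 to 6 and 4 to 16 for elavmin and delta-elav,fnenFNE heads, and 0 to 8, 0 and 0 for delta-elav,fnenFNE, elavmin,fnenFNE and elavnFNE at 7-8 h. They were 142 to 158 for heads against embryos in wild type, 78 to 114 in delta-elav,fnenFNE, 169 to 194 for the control at 7-8 h against wild type at 14-16 h, 129 to 147 within delta-elav,fnenFNE, and 1 to 4 and 4 to 10 for the genotype by stage tests of elavmin and delta-elav,fnenFNE.

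Same-numbered libraries did not deviate together throughout any comparison: in 0 of 12 was every correlation over 0.1 (range -0.54 to 0.55), and 10 of 44 pairs correlated best with their own number. Some pairs did deviate together. Correlations were 0.34, 0.44 and 0.05 for elavmin heads and 0.55, 0.04, 0.41 and -0.27 for delta-elav,fnenFNE at 14-16 h, each against wild type. The limit fails on 1 low pair, so it cannot show that libraries were unpaired. A replicate block gave 147 calls for wild-type heads against embryos, 65 in place of 103 in delta-elav,fnenFNE, 173 and 153 between the embryonic ages, and 14 in delta-elav,fnenFNE heads. In the other comparisons it gave 3, 3 and 3 at 14-16 h, 9 in elavmin heads and 5, 0 and 0 at 7-8 h. For the genotype by stage tests a replicate block within each stage, chosen after seeing the data, gave 5 calls for elavmin in place of 2 and 7 for delta-elav,fnenFNE.

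Depth limits the low shares: members with 0 to 3 first-bin counts in a group have a bound or a wide interval only. Reads at 7-8 h were shorter than at the other stages, and their part in the lower shares there was not tested. First bins cannot show a start inside the bin.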

Other observations

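PsGEF and nAChRalpha7 are genes whose annotated transcripts in the Ensembl annotation all start at the first bin, so a share under that of other genes cannot be assigned to a listed downstream start. In PsGEF no first-bin count was found in 40172 gene counts of wild-type heads or in 22371 of delta-elav,fnenFNE heads, which allows up to 0.00747% and 0.0134%.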
